A study of Mus musculus with 2 samples.

Results

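Genes of the proteasome were examined in mouse spleen RNA: the subunits of its core and regulatory particles, its activators and the chaperones that assemble it. Members were taken by symbol, as every gene whose name starts with Psm, then a letter from a to g, then a digit. Psmb8, Psmb9, Psmb10 and Psme1, which interferon induces, were left out of the set and serve below as neighbours. The rule found 43 entries. Of these, 40 were subunits, activators or assembly chaperones with a probe set that names no other gene, among 8251 genes measured in that way. Another 2 entries, Psmc3ip and Psme3ip1, carry a subunit's name because their proteins bind it, and 1 entry was a probe set that names Psme2 together with Psme2b. These 3 entries are described on their own, and all counts are over the 40 genes. The series holds 2 oligonucleotide arrays, array 1 and array 2, hybridised with purchased mouse spleen total RNA of a single catalogue number. The labels give no strain, age, sex or treatment and no second group, and they do not say whether the arrays shared a tube, a labelling reaction or a day. The spread between the arrays may therefore be technical, and no test of a condition was possible.

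The proteasome is the main protease of the cytosol and nucleus. Its core particle is a barrel of stacked rings: outer alpha rings that gate the entrance and inner beta rings that hold the cutting sites. A regulatory particle caps the barrel. The ATPase ring in its base unfolds proteins and feeds them inward, while its lid removes the ubiquitin chains that marked them for destruction. In lymphoid tissue the peptides it releases also supply antigen presentation by MHC class I, for which interferon replaces the cutting subunits of the beta ring by inducible ones.

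Arrays report the brightness of a probe set, on a linear intensity scale. The background was taken from 15 probe sets for bacterial transcripts, whose highest intensity was 95 on array 1 and 76.2 on array 2. A gene was called bright when its probe set passed, on each array, that array's 60th percentile, which was 346.3 on array 1 and 342.2 on array 2. Where a gene had several probe sets, the one with the highest mean log2 signal was used. Brightness depends on the probe's sequence as well as on the transcript, so intensities are not compared between genes. Markers of B cells, T cells, macrophages and red cell precursors, all 18 that were measured, were bright. So were all 8 measured markers of pancreatic acinar cells, a tissue next to the spleen, which summed to 62882 on array 1 and 64930 on array 2. Of the array 1 sum, Ctrb1 gave 23276.2 and Prss2 gave 11363.1. Their probe sets carry the suffixes _r_at and _f_at, which mark probes chosen by relaxed rules or shared by similar sequences. The share of the proteasome signal that came from acinar cells was not tested. Of 4 measured liver markers 3 were bright, Alb, Apoa1 and Cyp2e1, and their part in the signal was not tested either. Of 5 brain and 5 testis germ cell markers, 1 each was bright.

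Proteasome transcripts were widely present in spleen RNA. Of the 40 genes, 35 (87.5%) were bright, where the share over all named genes was 45.2%. On both arrays 38 exceeded the brightest bacterial control, as did 73.9% of all named genes. Their median log2 signal was 9.91 on array 1 and 10.1 on array 2, where the medians over all named genes were 8.32 and 8.29. In bulk RNA, more cells of a type and more transcript per cell cannot be told apart. In the core particle all 7 alpha and all 7 beta subunit genes were bright. That count rests in part on probe sets whose suffix marks probes shared by similar sequences or chosen by relaxed rules: without them 10 of 12 core genes were bright, Psmb4 and Psmb5 were not, and Psma3 and Psmb7 had no value. Of the regulatory particle, 14 of 17 subunit genes were bright, and the exceptions were Psmc4, Psmd2 and Psmd12. Of the assembly chaperones 5 of 7 were bright, and of the activators both. Without suffix-marked probe sets 1 of 2 base chaperones and 2 of 4 core chaperones were bright, and Psmd9 had no value. The share over all named genes was then 43.4%.

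**Figure D1:**
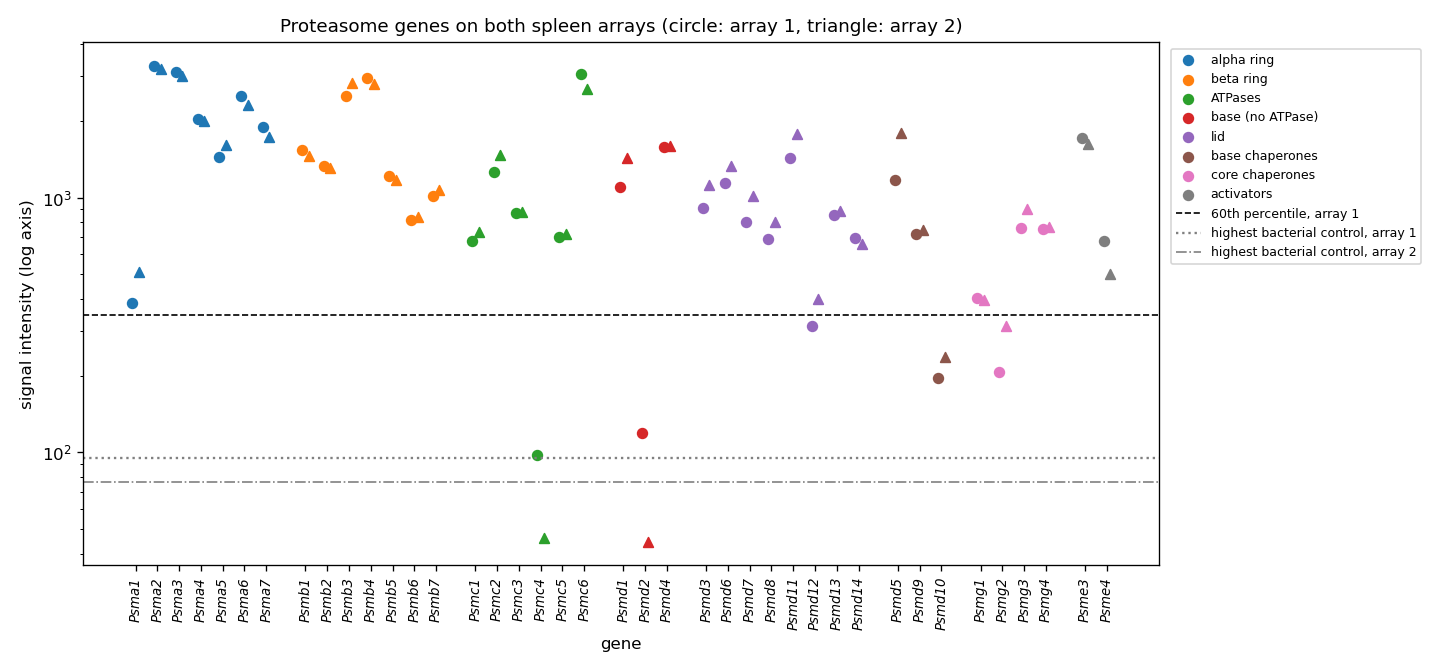
Signal intensity (log axis) of the 40 proteasome genes on array 1 (circles) and array 2 (triangles), coloured by the role of the protein. The dashed line is the 60th percentile of array 1 (346.3), and the dotted and dash-dotted lines are the highest bacterial control of array 1 (95) and array 2 (76.2). On both arrays 35 genes lie above the percentile, and Psmc4 and Psmd2 fall below the bacterial control on array 2.

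The alpha subunits form the outer rings, whose tails close the gate of the core particle and on which the ATPases dock. Psma2 gave 3283.3 on array 1 and 3198.5 on array 2, and Psma3 gave 3118 and 3017. Psma4 gave 2037.4 and 2003.8. These genes differed by 3.35% or less between the arrays. Psma5 gave 1450.4 and 1607.6, Psma6 gave 2506.2 and 2311.7, and Psma7 gave 1902 and 1737.3. Of the alpha ring genes, Psma1 lay closest to the brightness limit, at 386.9 on array 1 and 510.1 on array 2, a mean of 448.5 ± 87.1 (SD, n = 2). Its log2 difference of 0.40 was the widest of the ring, whose pooled SD on the log2 scale was 0.124. Psma3 is read by a probe set with the suffix _f_at, which marks probes shared by similar sequences, and has no other.

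The beta ring carries the proteolytic sites on Psmb5, Psmb6 and Psmb7, whose activities cut after hydrophobic, acidic and basic residues respectively. The chymotrypsin-like subunit Psmb5 gave 1214.8 on array 1 and 1169.2 on array 2. The caspase-like subunit Psmb6 gave 817.4 and 841.1. The trypsin-like subunit Psmb7 gave 1018.6 and 1067.6. All of these probe sets were bright on both arrays. Those of Psmb5 and Psmb7 carry the suffixes _s_at and _f_at. The other probe set of Psmb5, which has no such suffix, gave 305.6 and 343.6. It passed the brightness limit on array 2 only and so was not bright. Psmb7 has no other probe set. The non-catalytic subunits were bright as well: Psmb1 gave 1534.7 and 1462.4, Psmb2 gave 1330.1 and 1312.5, and Psmb3 gave 2515.3 and 2807.1. Psmb4 gave 2960.5 and 2791.8. Among the proteasome groups by role, the beta ring had the closest match between the arrays, as read by the probe set used for each gene. Its pooled SD was 0.0579 on the log2 scale, against 0.152 over all bright genes and 0.0456 over the B cell markers. Over the left-out Psmb8, Psmb9, Psmb10 and Psme1 it was 0.0683, so a close match was not particular to the beta ring. Probe sets that were not used gave log2 differences of 0.06 and -0.35 for Psmb1 and 0.17 for Psmb5. Those of Psmb4 gave 0.67 and, with values under the floor, 0.

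The genes left out of the set are all induced by interferon-gamma. Psme2, the second chain of the interferon-induced activator, was not left out by the rule and is described below. Psmb8, which takes the place of Psmb5, gave 3831.8 and 4292.3 on arrays 1 and 2. Psmb9, the counterpart of Psmb6, gave 2187.3 and 2302.1, and Psmb10, the counterpart of Psmb7, gave 1831.7 and 1786. With the limit on Psmb5 and Psmb7 given above, constitutive and inducible cutting subunits were both bright in the same RNA, and how much of each protein the spleen holds cannot be read from probe intensities. Psme1, a chain of the interferon-induced activator, gave 2580.6 and 2678.4.

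Proteasome genes are known targets of the transcription factor Nfe2l1, which binds the antioxidant response element and raises their transcription when proteasome activity falls short. Its transcript was bright here, at 1594.3 on array 1 and 1366 on array 2, a mean of 1480 ± 161 (SD, n = 2). The core of that element, TGACNNNGC, was therefore searched on both strands in the 250 bases before the RefSeq start sites (build GRCm38.p6), of which 33 of the 40 genes had one in the table. It was found in 5 of the 33 genes (15.2%), against 14.0% of 6576 array genes and 11.5% of all 27025 genes with a promoter, so the share among proteasome genes lay near the background. The matches are shown with up to 25 bases on each side and the match in capitals, because they include the cutting subunits Psmb5 and Psmb6. They lie at chr14:54618009-54618067 (minus strand) for Psmb5, chr11:70525323-70525356 (plus) for Psmb6, chr14:45329574-45329630 (plus) for Psmc6, chr5:123228134-123228189 (plus) for Psmd9 and chr11:107479278-107479314 (plus) for Psmd12. Each is written along the gene's own strand.
Psmb5: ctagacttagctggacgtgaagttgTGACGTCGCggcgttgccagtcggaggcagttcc
Psmb6: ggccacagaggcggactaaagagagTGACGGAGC
Psmc6: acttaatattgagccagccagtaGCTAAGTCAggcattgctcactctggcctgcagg
Psmd9: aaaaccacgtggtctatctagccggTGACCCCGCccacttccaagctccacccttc
Psmd12: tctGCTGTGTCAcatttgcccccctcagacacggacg
The match began 47 bases before the start site in Psmb5, 9 in Psmb6 and 31 in Psmd9, and 227 in Psmc6 and 247 in Psmd12, where it read on the opposite strand. Of these genes, Psmd12 alone was not bright. A match of letters shows no binding. Among other promoter motifs, CCAAT was present in 12 of the 33 genes (36.4%) and in 40.0% of array genes, and the GC box GGGCGG in 19 (57.6%) and in 58.9%. The TATA motif TATAAA was present in 3 (9.09%) and in 10.9%. None of the motifs set the proteasome genes far from the other genes of the array.

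The ATPases Psmc1 to Psmc6 form the ring that unfolds substrates. Psmc1 gave 674.1 on array 1 and 736.2 on array 2, Psmc2 gave 1265.9 and 1466.6, and Psmc3 gave 873.8 and 875.3. Psmc5 gave 697.9 and 720.9, and Psmc6, whose promoter match is shown above, gave 3055.8 and 2662.3. These 5 genes were bright. Psmc4 was not: it gave 97.5 on array 1, barely over the highest bacterial control, and 46.2 on array 2, below it. All 6 ATPases are known as essential parts of 1 ring. The value for Psmc4, 71.9 ± 36.3 (SD, n = 2), rests on its only probe set, and it shows that this probe set gave no signal beyond background on array 2, not that the transcript was absent.

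The base also holds the large scaffold subunits Psmd1 and Psmd2 and the ubiquitin receptor Psmd4. Psmd1 gave 1098.4 and 1434 on arrays 1 and 2, and Psmd4 gave 1578.7 and 1592.2. Psmd2, which like Psmc4 has a single probe set, gave 119.2 on array 1 and 44.6 on array 2, and the latter lay under the bacterial control. Psmc4 and Psmd2 were the only members not above background on both arrays.

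The lid is built around Psmd14, the enzyme that cuts ubiquitin chains off a substrate, and its partner Psmd7. Psmd14 gave 695.8 on array 1 and 656.3 on array 2, and Psmd7 gave 801.1 and 1016.6. The remaining lid subunits are mainly scaffold proteins. Psmd3 gave 913.4 and 1121.4, Psmd6 gave 1139.3 and 1335.6, and Psmd8 gave 686.1 and 801.4. Psmd11, known for promoting assembly of the whole proteasome, gave 1424.8 and 1770.2, and Psmd13 gave 852.4 and 889.7. Each of these was bright. Psmd12 gave 313.4 and 399.2, so it passed the brightness limit on array 2 only, and its single probe set has the suffix _f_at. The small lid subunit Sem1, whose symbol falls outside the rule, gave 3120.8 and 3117.1 with a single probe set of suffix _r_at.

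Assembly chaperones hold subunits in place and leave the finished particle. Of the chaperones of the base, Psmd5 gave 1177.5 on array 1 and 1788.4 on array 2, a mean of 1483 ± 432 (SD, n = 2). Psmd9 gave 721.2 and 746.1, and its only probe set has the suffix _r_at. Psmd10, also known as gankyrin, gave 195.9 and 236.2 and was above background but not bright. The chaperones of the core act in the pairs Psmg1 with Psmg2 and Psmg3 with Psmg4. Psmg1 gave 402.4 and 396.2, while its partner Psmg2 gave 206.1 and 312.7 and was not bright. Psmg3 gave 760.8 and 902.5, and Psmg4 gave 755.1 and 767.8. Pomp, the maturation factor of the beta ring, is outside the symbol rule and gave 2365.4 and 1916.4.

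Activators open the gate of the core particle without needing ubiquitin. Psme3, the nuclear REG-gamma ring, gave 1715.5 on array 1 and 1620.4 on array 2. Psme4 gave 674.3 and 499.5, a mean of 587 ± 124 (SD, n = 2). Both genes were bright. The probe set that names both Psme2, the second chain of the interferon-induced activator, and Psme2b gave 1832.3 and 1681.1 and cannot be assigned to either. Of the genes named for a subunit they bind, Psme3ip1 gave 667.5 and 648 and was bright. Psmc3ip, a factor of meiotic recombination, gave 48.9 and 18.1, under the bacterial control on both arrays.

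The choice of probe set mattered for 7 genes that had 2 or 3. Of the probe sets of Psmb4, 1 gave 2960.5 and 2791.8 on arrays 1 and 2, another 62.4 and 99.3, and the last 3.7 and 2.8. Those of Psmb1 gave means of 1499, 973 and 57.8, and the last of these was under the bacterial control on both arrays. Those of Psmc5 gave means of 709 and 34.7, the latter again under it. Probe sets of the same gene thus ranged from bright to background in this RNA. In Psmb5, Psmc3, Psmd11 and Psmg3 all probe sets were above background, with means from 325 to 1192 in Psmb5, 285 to 875 in Psmc3, 240 to 1598 in Psmd11 and 255 to 832 in Psmg3. The bright probe sets of Psmb4, Psmb5 and Psmg3 carry suffixes that mark shared or relaxed probes. Without such probe sets the mean was 80.9 for Psmb4, 325 for Psmb5 and 255 for Psmg3, and none of these genes was bright. All 3 probe sets of Psmc3 carry such suffixes, so it had no value without them.

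**Figure D2:**
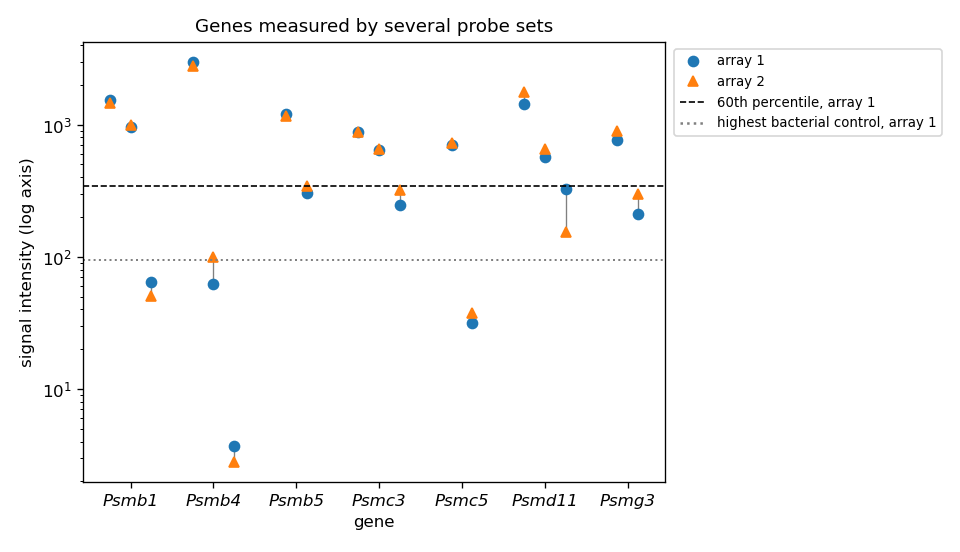
Signal intensity (log axis) of each probe set of the 7 genes measured by several, with array 1 as circles and array 2 as triangles joined by a line. The dashed line is the 60th percentile of array 1 (346.3) and the dotted line its highest bacterial control (95). The probe sets of Psmb4 span 3.25 to 2876 in mean intensity, whereas those of Psmc3 span 285 to 875.

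The arrays were compared gene by gene as the log2 intensity of array 2 minus that of array 1, with the median difference of bright probe sets set to 0. Over the 35 bright proteasome genes the median difference was 0.04, with a range from -0.43 for Psme4 to 0.60 for Psmd5, and the pooled SD was 0.149, against 0.152 over all 3731 bright genes. Psmd5 was the only one more than 1.5-fold apart (1 of 35), where 1.53% of all bright genes were. It was also the only one beyond the log2 difference of 0.45 that bounded 95% of bright genes. Among the 5 genes that were not bright, Psmc4 at -1.08, Psmd2 at -1.42 and Psmg2 at 0.60 were also more than 1.5-fold apart.

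Differences between the arrays were also summed up by particle. In the core particle 5 of 14 genes were higher on array 2, with a median difference of -0.03, which turned to 0.01 when the probe sets of a gene were averaged. In the regulatory particle, among 14 bright genes, 12 were higher on array 2 and the median was 0.17. On the same scale 49.9% of all bright genes were higher on array 2. In the lid the median was 0.23, and 6 of its 7 bright genes were higher on array 2: Psmd3 by 0.30, Psmd6 by 0.23, Psmd7 by 0.35, Psmd8 by 0.23, Psmd11 by 0.31 and Psmd13 by 0.06 on the log2 scale. Psmd14 was the exception, at -0.08. Each of these values lay inside the range that held 95% of bright genes. All of them come from the same pair of arrays, so they do not count as separate observations, and the difference between the particles was not tested. For Psmd11, the second probe set gave 0.22, while the third, marked as relaxed, gave -1.07.

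**Figure D3:**
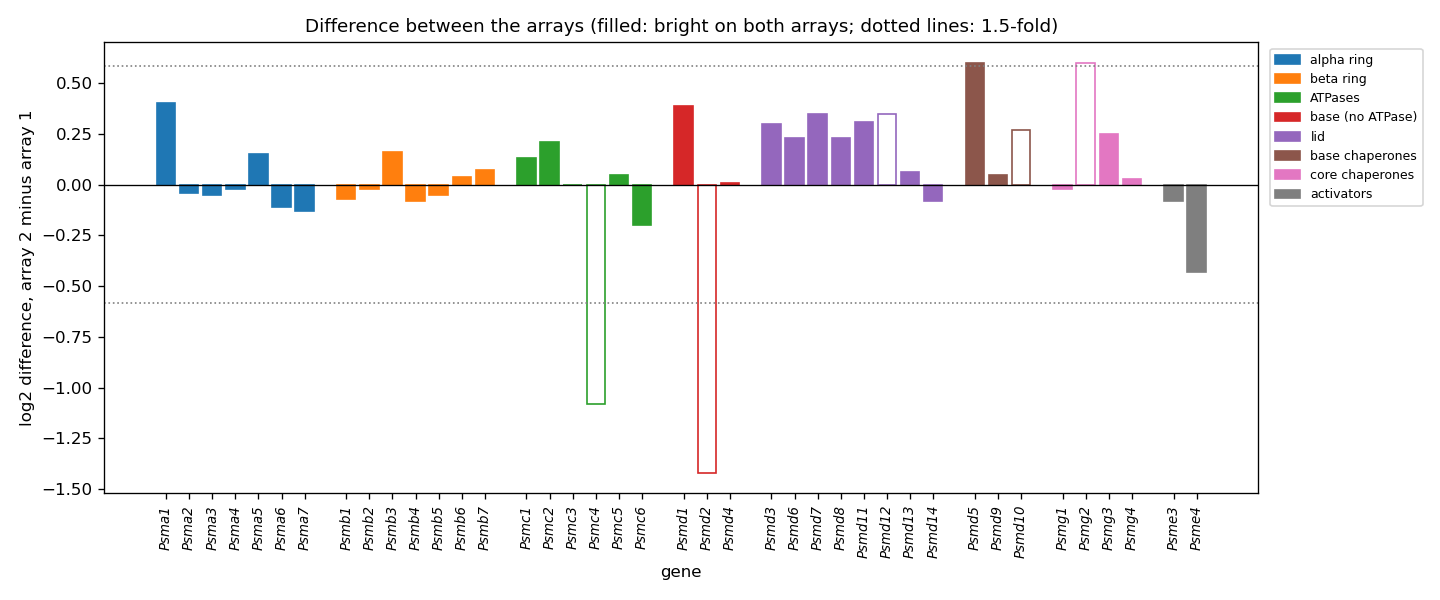
Log2 difference (array 2 minus array 1, set to a median of 0 over bright probe sets) of the 40 proteasome genes, coloured by role, with filled bars for genes bright on both arrays and open bars for the 5 that were not. Dotted lines mark 1.5-fold. The lid bars run from -0.08 to 0.35, those of the beta ring from -0.08 to 0.16, and the dim Psmc4 and Psmd2 reach -1.08 and -1.42.

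Partners of the proteasome in the same pathway were read from lists of their own. Of the receptors, shuttles and deubiquitinases 5 of 8 measured genes (62.5%) were bright, beside 45.2% of all named genes. The bright genes include the lid subunit Sem1, described above, and the shuttle Rad23b, which gave 546.9 on array 1 and 448.6 on array 2. The probe sets used for Sem1 and Rad23b carry the suffixes _r_at and _f_at. The genes of this list that were not bright were Ubqln2, at 182 ± 21.4, and the deubiquitinases Usp14, at 351 ± 17.6, and Uchl5, at 231 ± 27.9 (SD, n = 2 each). Usp14 gave 363.9 on array 1 and 339 on array 2, so it passed the brightness limit on array 1 only. All 8 were above background. The segregase that pulls ubiquitinated proteins out of membranes and complexes was bright in 5 of 5 measured genes, with its ATPase Vcp at 2019.4 and 2180.8 and its cofactor Ufd1 at 429.1 and 401. Among these 5, the probe sets used for Faf1 and Ubxn1 carry the suffixes _s_at and _g_at. All 5 measured genes of assembly and regulation, Pomp, Nfe2l1, Nfe2l2, Zfand5 and Akirin2, were bright, Akirin2 by a probe set with the suffix _i_at. Downstream, 2 of 6 measured peptidases that trim proteasome products were bright (33.3%), beside 45.2% of all named genes. With 6 of 8 listed genes measured, the shares are not read as a difference. The bright ones were Npepps, at 867.3 and 733.4, and Blmh, at 920.2 and 868.7. Tpp2, at 124 ± 12.6, Thop1, at 130 ± 43.4, Nln, at 73.7 ± 3.75, and Lap3, at 32.0 ± 12.5 (SD, n = 2 each), were not. Lap3, whose single probe set has the suffix _r_at, was under the bacterial control on both arrays, and Nln on array 1. The ubiquitin genes and the activating enzymes Uba1 and Uba6 were not analysed here.

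The lid shares its architecture with the COP9 signalosome, which trims Nedd8 from ubiquitin ligases, and with the translation factor eIF3. In the COP9 signalosome 9 of 10 genes were bright, among them Gps1 at 2109.7 on array 1 and 1998.2 on array 2, and Cops2 was not, at 312.5 and 258. In eIF3 9 of the 10 genes measured, of 13 listed, were bright, among them Eif3a at 859 and 704.3 and Eif3b at 2599.5 and 2594.1. The gene that was not was Eif3f, at 92.5 and 165. The chaperonin CCT, another ringed complex, had 7 of 8 bright, including Tcp1 at 424.9 and 547.5, but not Cct2, at 359.5 and 257.9. Cct2 passed the brightness limit on array 1 only. The share of bright genes was thus 90.0%, 90.0% and 87.5% in these complexes and 87.5% among proteasome genes, beside 45.2% of all named genes. The bright Cops7a and Cct6a are read by probe sets with the suffix _f_at. For these complexes the shares were not computed without suffix-marked probe sets. Each complex, like the proteasome, had at least 1 subunit gene that was not bright. Median differences between the arrays were -0.01 in the COP9 signalosome, -0.05 in eIF3 and 0.10 in the chaperonin. Over all bright proteasome genes the median was 0.04, and in the lid, which is 1 part of the complex, 0.23.

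**Figure D4:**
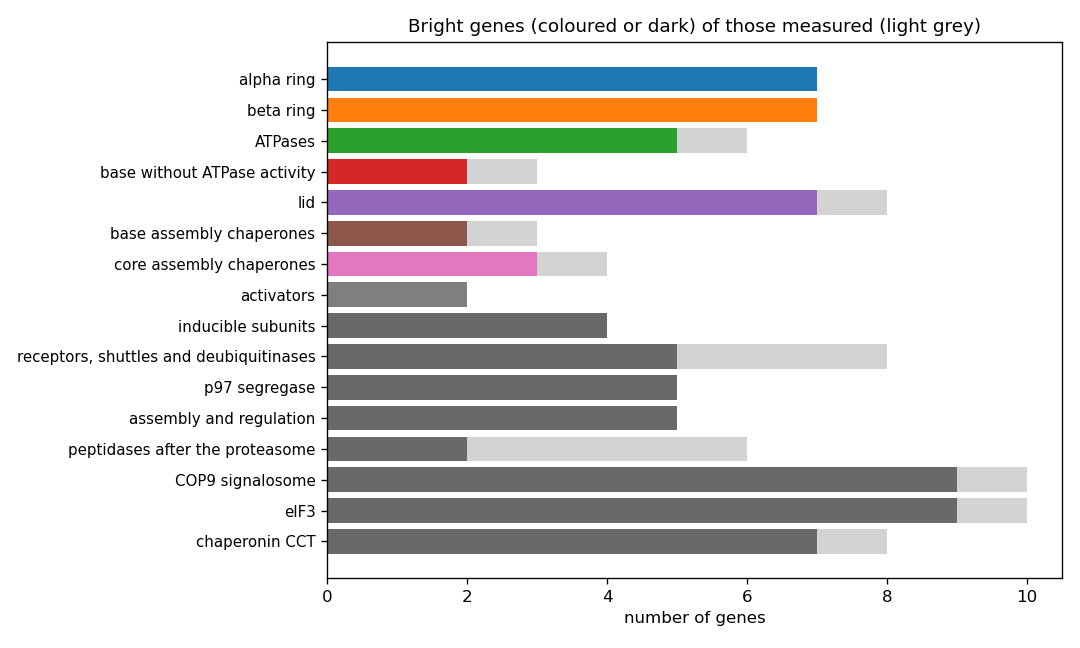
Number of genes measured (light grey) and bright on both arrays (coloured for the proteasome groups, dark grey for other lists). The alpha and beta rings have 7 of 7 bright, the lid 7 of 8, and the peptidases that act after the proteasome 2 of 6. Over all named genes 45.2% were bright.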

How the data were processed

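The deposited table held 1 signal intensity per probe set and array for 12488 probe sets. The authors had scaled both arrays alike: the mean intensity, without the lowest and highest 2%, was 500.3 on each, as computed from the values. The software and detection calls are not given in the sources used here. The 66 control probe sets stayed out of percentiles. Of the others, 10833 named 1 gene in the platform annotation, 396 several and 1193 none, and all 42 single-gene entries of the rule were found in RefSeq by gene identifier. Before taking log2, values under the 20th percentile of an array (41.8 on each) were raised to it. The members and lists were chosen with earlier results of these data known. Named were all members, the 4 inducible genes, and of each further list the first 2 measured genes and those not bright where 5 or fewer. Blmh, Nfe2l2, Zfand5, Akirin2, Faf1, Ubxn1, Cops7a, Cct6a, Ctrb1, Prss2 and the bright liver markers were named after their values were seen. Alternatives changed the brightness limit, floor, normalization, probe sets and arrays used. The functions were tested on simulated data. With 2 arrays, precision is limited by their number. The tools were pandas 2.3.3, numpy 2.4.6, statsmodels 0.14.6 and matplotlib 3.10.9 under Python 3.11.15.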

Additional observations from a re-analysis of the deposited data

Results flagged for a closer look

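The probe set that names Psme2 together with Psme2b entered no count, and it carried signal above the bacterial controls on both arrays, with a mean intensity of 1757 ± 107 (SD, n = 2). A second probe set with the same names gave 23.4 on array 1 and 71.8 on array 2. A single group of 2 arrays allowed no check for an array that stands apart and no comparison of effects between groups.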

How the results depend on the processing

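The count of bright proteasome genes, 35 of 40, was 36 with the limit at the 50th percentile, which 55.7% of all named genes passed, and 32 at the 75th, which 28.5% passed. Using a single array it was 36 (array 2) or 35 (array 1), where 47.6% of all named genes passed on either. Averaging the probe sets of a gene gave 35, beside 41.4% of all named genes. Leaving out suffix-marked probe sets gave 28 of 35, beside 43.4%. With the shared Psme2 probe set it was 36 of 41, beside 45.8%. Added after the data were seen, the count with Psmc3ip and Psme3ip1 was 36 of 42, beside 45.2%. With no brightness filter 4 genes were more than 1.5-fold apart and the pooled SD was 0.257, because dim genes entered. The median log2 signal was 9.63 with the mean over probe sets, which takes in dim probe sets, and 9.82 without suffix-marked ones, beside 7.92 and 8.20 over all named genes. Quantile, loess and no centring left the median difference of the 35 genes between 0.03 and 0.04. The lid's median, in alternatives added after the data were seen, stayed between 0.23 and 0.26, while that of the core particle turned to 0.01 with the mean over probe sets. With the mean over probe sets, intensities moved by more than 1 SD for all 7 genes that had several probe sets. The rest of the 40 have a single probe set and could not move. Without suffix-marked probe sets, intensities moved by more than 1 SD for Psmb4, Psmb5 and Psmg3. No other gene of the 35 had its probe set replaced, so none of them could move.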
